A study of Mus musculus with 6 samples.

Results

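The genes described here are 8 mouse genes for regulators of nephron development, *Eya1*, *Six2*, *Sall1*, *Wt1*, *Emx2*, *Gata3*, *Lhx1* and *Hnf4a*. They were chosen by name for their role in the kidney, out of 22367 protein-coding genes of the annotation. Every ATAC-seq peak that overlapped the body of such a gene or the 10 kb on either side of it was taken, which gave 22 of the 51867 peaks called in 3 cell lines. A peak was called a start-site peak when it came within 1 kb of the start of any annotated transcript of the gene, and every remaining peak was called an other peak. Coordinates are those of mm9.

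ATAC-seq was performed in duplicate, 6 samples in all, on Pax6-HIGH cells (β-TC3, an insulinoma line), Pax6-ON cells (MV+, derived from lens epithelia of wild-type C57BL6 mice) and Pax6-OFF cells (RAG, a renal adenocarcinoma line from BALB/c mice). All 3 lines were untreated cultures grown in the same kind of medium with serum, and no authentication of the lines was reported in the methods. In ATAC-seq the Tn5 transposase inserts adapters into open DNA, so that sequenced fragments pile up at accessible sites. The detergent that released the nuclei was stronger for Pax6-ON cells than for the other lines, so that detergent and cell line cannot be told apart. Since the authors pooled both replicates in 1 peak call per line, the spread between replicates is unknown and no difference between lines was tested.

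The nephron forms from progenitors in the cap of mesenchyme around each tip of the branching ureteric bud. *Eya1*, *Six2* and *Sall1* act in these progenitors, and *Wt1* acts there and later in podocytes, the filtering cells of the glomerulus. *Lhx1* acts in the renal vesicle, the epithelium that the progenitors turn into. *Emx2* and *Gata3* act in the ureteric bud and nephric duct, from which the collecting ducts grow, and *Hnf4a* acts in the proximal tubule. Regulators of development of this kind often have starts rich in the dinucleotide CpG, which is otherwise rare in the genome.

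The sequences below show the accessible sites on which the comparison of the lines turns. Each is a stretch of the plus strand of mm9, 5′ to 3′, with capitals for matches on either strand to the motifs searched. The AP-1 motif, bound by Fos and Jun proteins, was searched as TGANTCA, where N is any base. The HNF4 motif was searched as CAAAGTCCA, the CTCF motif, which loop anchors often hold, as GGNGGCAG and the GATA motif as AGATAA. The GC box, typical of CpG-rich promoters and bound by Sp1 and its relatives, was searched as GGGCGG, and the motif of the promoter factor NF-Y as CCAAT. The first 4 lie at the start-site peaks that were found in some but not all lines. The *Eya1* stretch was moved to the nearest stretch of equal length free of untranslated exon, so that its middle lies 240 bp from the summit, the base with the most fragments. The others are centred on the summit.
Eya1 start, Pax6-HIGH, chr1:14300282-14300482: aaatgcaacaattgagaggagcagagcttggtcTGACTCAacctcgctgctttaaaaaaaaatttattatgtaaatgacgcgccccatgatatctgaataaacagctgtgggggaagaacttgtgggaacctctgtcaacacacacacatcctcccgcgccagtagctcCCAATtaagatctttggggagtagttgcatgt
Six2 start, Pax6-ON, chr17:86087698-86087898: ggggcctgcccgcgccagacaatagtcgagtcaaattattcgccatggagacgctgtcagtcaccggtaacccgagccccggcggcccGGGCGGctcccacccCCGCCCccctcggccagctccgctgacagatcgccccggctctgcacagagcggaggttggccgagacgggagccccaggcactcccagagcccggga
Sall1 start, Pax6-OFF, chr8:91567402-91567602: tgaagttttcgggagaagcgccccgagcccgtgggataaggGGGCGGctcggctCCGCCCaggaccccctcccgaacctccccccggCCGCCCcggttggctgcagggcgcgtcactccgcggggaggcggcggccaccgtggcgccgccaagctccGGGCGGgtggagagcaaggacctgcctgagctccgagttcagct
Emx2 start, Pax6-OFF, chr19:59532936-59533136: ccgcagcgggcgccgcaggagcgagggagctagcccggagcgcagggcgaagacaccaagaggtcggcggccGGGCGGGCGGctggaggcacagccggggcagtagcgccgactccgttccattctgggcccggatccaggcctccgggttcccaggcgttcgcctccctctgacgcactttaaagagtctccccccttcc

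The next 3 are the site near a *Gata3* start that was called in every line, the strongest peak of all 8 genes, which lay in an intron of *Eya1*, and the site in the *Lhx1* window that was called in every line.
Gata3 start, Pax6-HIGH, chr2:9801216-9801416: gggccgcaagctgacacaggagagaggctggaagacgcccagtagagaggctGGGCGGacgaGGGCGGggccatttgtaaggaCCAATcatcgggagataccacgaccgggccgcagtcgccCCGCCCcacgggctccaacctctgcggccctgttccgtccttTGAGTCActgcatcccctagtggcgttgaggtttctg
Eya1 intron, Pax6-HIGH, chr1:14171849-14172049: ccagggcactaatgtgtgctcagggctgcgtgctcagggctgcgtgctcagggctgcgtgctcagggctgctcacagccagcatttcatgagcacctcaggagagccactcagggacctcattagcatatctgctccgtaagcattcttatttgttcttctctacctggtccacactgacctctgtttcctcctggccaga
Lhx1 window, at the start of Aatf, Pax6-OFF, chr11:84327034-84327234: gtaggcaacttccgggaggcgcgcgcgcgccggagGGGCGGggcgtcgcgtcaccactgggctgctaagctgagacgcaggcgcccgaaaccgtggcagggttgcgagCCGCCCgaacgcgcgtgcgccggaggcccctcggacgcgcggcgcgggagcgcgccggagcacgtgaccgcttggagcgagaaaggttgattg

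The last pair stands just before a start of *Wt1*, a CpG-rich gene, and of *Hnf4a*, a CpG-poor gene, where no line had a peak. The stretches of *Gata3*, the *Eya1* intron, *Wt1* and *Hnf4a* were chosen after their values were seen.
Wt1 start, no peak, chr2:104966485-104966685: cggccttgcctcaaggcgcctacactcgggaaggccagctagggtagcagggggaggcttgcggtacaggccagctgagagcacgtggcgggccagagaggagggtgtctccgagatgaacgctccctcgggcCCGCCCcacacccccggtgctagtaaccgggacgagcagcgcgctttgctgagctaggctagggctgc
Hnf4a start, no peak, chr2:163372722-163372922: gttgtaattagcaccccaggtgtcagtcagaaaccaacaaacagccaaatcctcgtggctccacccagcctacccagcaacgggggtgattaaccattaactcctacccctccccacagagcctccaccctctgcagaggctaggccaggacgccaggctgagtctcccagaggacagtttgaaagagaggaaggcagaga

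The GC box was the most frequent motif in these stretches, but not all held it. The *Sall1* stretch held 4 matches, the *Gata3* stretch 3, and the *Six2*, *Emx2* and *Aatf* stretches 2 each. The *Wt1* stretch, which had no peak, held 1. The *Eya1* start stretch, the *Eya1* intron stretch and the *Hnf4a* stretch held none. The *Eya1* stretches held 5 and 4 CpG, against 22 in the *Emx2*, 23 in the *Sall1*, 20 in the *Six2*, 15 in the *Gata3* and 35 in the *Aatf* stretch.

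Each line had a start-site peak at 3 of the 8 genes, but at different ones. They were *Eya1*, *Sall1* and *Gata3* in Pax6-HIGH cells, *Six2*, *Emx2* and *Gata3* in Pax6-ON cells, and *Sall1*, *Emx2* and *Gata3* in Pax6-OFF cells. Over all protein-coding genes, 46.4% (Pax6-HIGH), 21.4% (Pax6-ON) and 36.1% (Pax6-OFF) had a start-site peak. The count of 3 of 8 thus stood near the background in Pax6-HIGH and Pax6-OFF cells and above it in Pax6-ON cells. With 8 genes and no replicates, no difference from the background can be claimed.

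Any peak in the gene body or the 10 kb on either side was found at 4 of the 8 genes in each line. *Gata3* and *Lhx1* had a peak in every line. *Eya1* and *Sall1* were the other genes in Pax6-HIGH cells, *Six2* and *Emx2* in Pax6-ON cells, and *Sall1* and *Emx2* in Pax6-OFF cells. Of all protein-coding genes, 61.6% (Pax6-HIGH), 30.6% (Pax6-ON) and 48.9% (Pax6-OFF) had such a peak. *Wt1* and *Hnf4a* had no peak in any line.

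The 5 genes with a start-site peak each showed a different combination of lines. *Eya1* was marked in Pax6-HIGH cells alone, as were 11.1% of all protein-coding genes, and *Sall1* in Pax6-HIGH and Pax6-OFF cells, as were 15.6%. *Gata3* was marked in all 3 lines, as were 17.5%. The combinations of *Six2* and *Emx2* were rare in the genome. A start-site peak in Pax6-ON cells alone, as at *Six2*, was found at 1.06% of genes, and one in Pax6-ON and Pax6-OFF but not Pax6-HIGH cells, as at *Emx2*, at 0.563%. *Wt1*, *Lhx1* and *Hnf4a* had no start-site peak in any line, as had 49.5% of all genes.

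**Figure D1:**
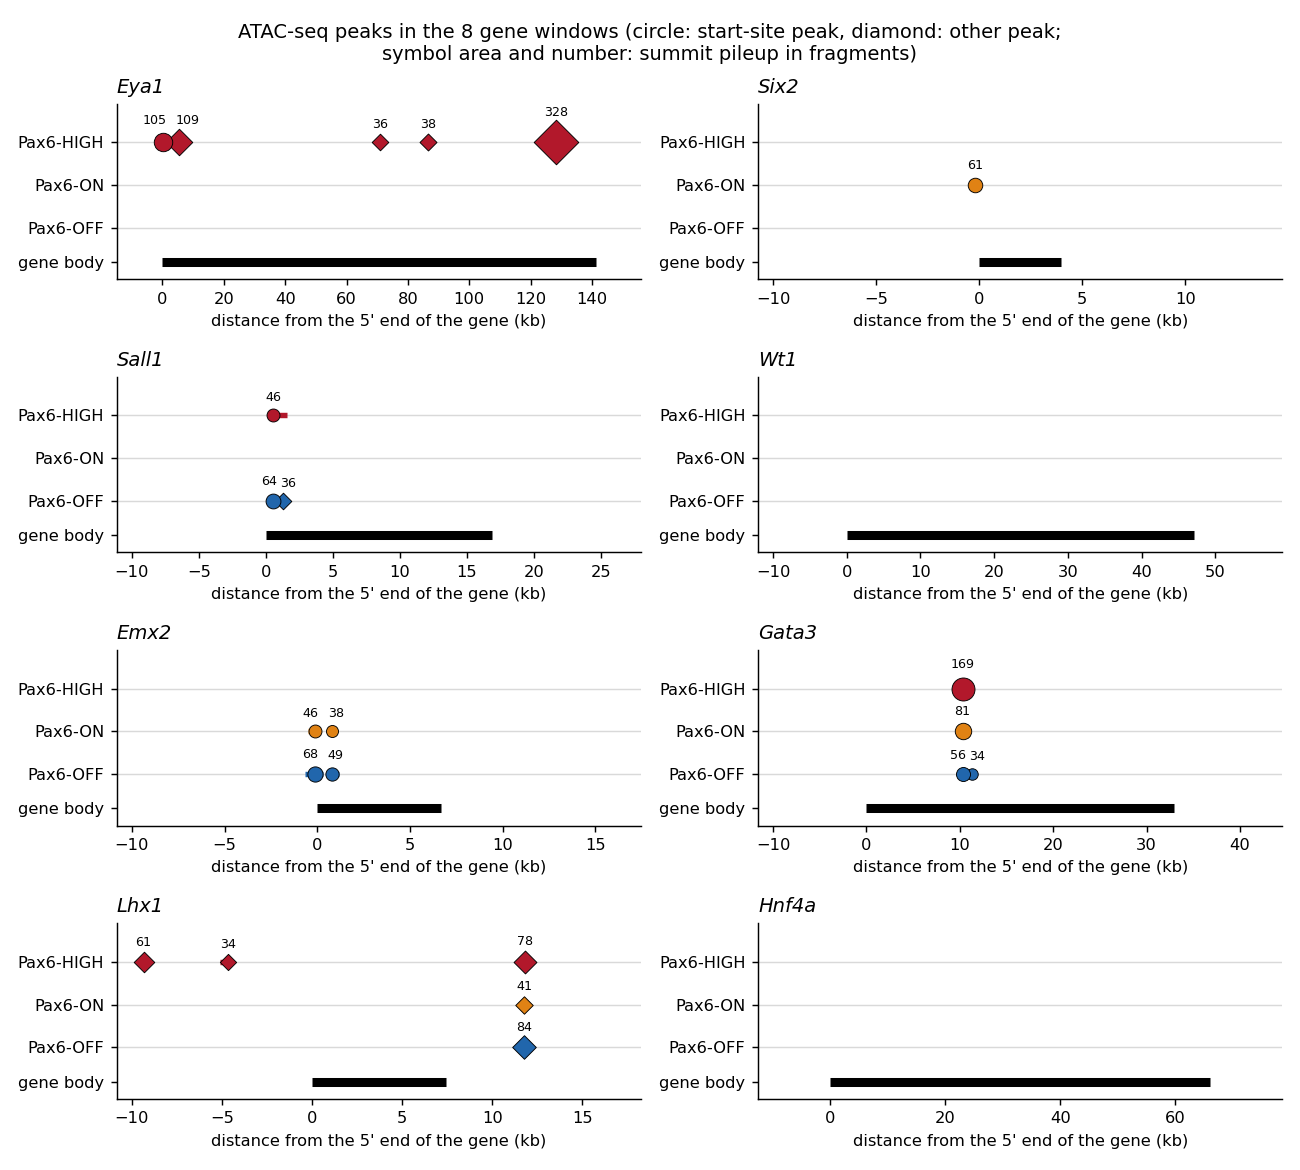
Positions of the 22 peaks in the windows of the 8 genes, with the distance from the gene's 5′ end in kb on the x axis and 1 line of symbols per cell line above the gene body (black bar). Circles are start-site peaks, diamonds are other peaks, and symbol area and number give the fragments at the summit. All 5 *Eya1* peaks, up to 328 fragments, lie in Pax6-HIGH cells, *Gata3* and *Lhx1* have a site in all 3 lines, and *Wt1* and *Hnf4a* are empty.

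Overlapping peaks of different lines were joined, which turned the 22 peaks into 13 sites. Of these, 8 were found in 1 line (7 in Pax6-HIGH and 1 in Pax6-ON cells), 3 in 2 lines and 2 in all 3 lines. Of the 6 start-site sites, 3 were found in 2 lines, 1 in all 3 and 2 in 1 line. Counted by gene, 17.5% of all protein-coding genes had a start-site peak in all 3 lines. Exactly 2 lines had it at 15.6% (Pax6-HIGH and Pax6-OFF), 2.32% (Pax6-HIGH and Pax6-ON) and 0.563% (Pax6-ON and Pax6-OFF). Only 1 line had it at 11.1% (Pax6-HIGH), 1.06% (Pax6-ON) and 2.48% (Pax6-OFF). Whether the 6 sites differ from these shares was not tested. The 7 other sites fell into 6 that were found in Pax6-HIGH cells alone and 1 that was found in every line, at the start of the neighbouring gene *Aatf*. Over the genome, 82.2% of Pax6-HIGH peaks away from any protein-coding start overlapped no peak of the other lines, so that 6 of 6 is close to what these calls gave everywhere.

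Peaks are ranked below by pileup, the number of fragments at the summit. Pileup was not scaled for depth, which was 100254099 fragments (Pax6-HIGH), 130955836 (Pax6-ON) and 102223606 (Pax6-OFF). Therefore pileups are not compared between lines, and each peak has its percentile among the 28024, 9821 or 14022 peaks of its own line. Ranges in parentheses are exact 95% Poisson intervals of the pileup turned into percentiles. They cover counting error only, since fragments amplified by PCR are not independent molecules. Fold enrichment is the ratio of the pileup to the background of the surrounding few kb or of the whole library, whichever was higher, with 1 added to each. As whole cultures were sampled, fewer nuclei with an open site and a less open site in each nucleus cannot be told apart.

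*Eya1* encodes a transcriptional coactivator and phosphatase that works with Six2 and its relatives and is needed for the progenitor mesenchyme to form. Its gene (ENSMUSG00000025932.7, chr1:14159035-14300281, minus strand) held the most peaks of the 8, and all 5 were in Pax6-HIGH cells. The strongest lay in an intron at chr1:14171494-14172312, with 328 fragments at the summit and a fold enrichment of 7.33. Its percentile was 99.3 (99.0 to 99.5), rank 189 of 28024 peaks. This site was 128332 bp downstream of the gene's 5′ end and 710 bp upstream of the annotated start of the microRNA gene AC156988.1.

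The start-site peak of *Eya1*, at chr1:14299570-14300696, covered the 5′ exon. It had 105 fragments, a fold enrichment of 4.82 and percentile 83.0 (75.0 to 89.0). An intronic peak 5460 bp inside the gene was of like height, with 109 fragments, a fold enrichment of 5.40 and percentile 84.4 (76.9 to 89.7). The remaining intronic peaks, at chr1:14213514-14213788 and chr1:14229288-14229724, were weak. They had 38 and 36 fragments and percentiles of 23.2 and 18.6. The background around the strongest peak was 43.9 fragments, against the library's lowest background of 11.8, and was also raised around the start, so that fold enrichment ranked these peaks lower than pileup did. By fold enrichment the start-site peak stood at percentile 68.9 and the strongest intronic peak at 95.7.

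Pax6-ON and Pax6-OFF cells had no peak in the 161 kb window of *Eya1*. Their nearest peaks outside it were 174062 and 174065 bp from the gene body. With a body of 141 kb, longer than 93.1% of protein-coding genes, *Eya1* offered the largest window of the 8 genes.

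*Six2* encodes the homeodomain factor that keeps nephron progenitors undifferentiated. Its gene (ENSMUSG00000024134.9, chr17:86083608-86087594, minus strand) is the shortest of the 8, at 3.99 kb. Its only peak, in Pax6-ON cells at chr17:86087518-86087922, had its summit 204 bp upstream of the start. It had 61 fragments, which is the median of that line's peaks, a fold enrichment of 4.09 and percentile 50.3 (23.2 to 70.4). The start of *Six2* was thus marked in the lens line by a peak of middling height and in neither the renal nor the insulinoma line. Beyond the window the nearest peaks were 19148 bp (Pax6-HIGH), 65994 bp (Pax6-ON) and 202909 bp (Pax6-OFF) from the gene body.

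*Sall1* encodes a zinc-finger factor that the mesenchyme needs for the ureteric bud to grow into it. Its gene (ENSMUSG00000031665.6, chr8:91551147-91568061, minus strand) had start-site peaks in Pax6-HIGH and Pax6-OFF cells, with summits in the intron after the 5′ exon, 537 and 559 bp from the start and 22 bp apart. In Pax6-OFF cells the peak at chr8:91567274-91568023 had 64 fragments, a fold enrichment of 4.01 and percentile 69.1 (49.2 to 82.5). In Pax6-HIGH cells the peak at chr8:91566504-91567638 had 46 fragments, a fold enrichment of 3.37 and percentile 38.6 (12.9 to 58.3). The site stood higher within the renal line than within the insulinoma line, but these ranges overlap. The Pax6-HIGH peak was not among the 9821 peaks with the smallest q-values, the number at which all lines were also compared, and *Sall1* was then marked in Pax6-OFF cells alone. A smaller Pax6-OFF peak at chr8:91566624-91566877 had 36 fragments and percentile 18.4, and it fell inside the wider Pax6-HIGH interval. The nearest Pax6-ON peak was 234133 bp from the gene body.

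*Wt1* encodes a zinc-finger factor of progenitors and podocytes. No line had a peak in its window (ENSMUSG00000016458.6, chr2:104966686-105013773, plus strand), although its body of 47.1 kb is longer than 77.2% of genes. The nearest peaks outside the window were 84708 bp (Pax6-HIGH), 17372 bp (Pax6-ON) and 17373 bp (Pax6-OFF) from the gene body. The lowest pileup called anywhere was 25 fragments (Pax6-HIGH), 30 (Pax6-ON) and 25 (Pax6-OFF). A site without a peak was therefore not detectable at this depth and threshold, and may still be weakly open.

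*Lhx1* encodes a LIM homeodomain factor of the renal vesicle. No line had a peak within 1 kb of its starts (ENSMUSG00000018698.7, chr11:84331479-84338923, minus strand), and the site shared by all lines, chr11:84326738-84327328, belongs to another start. Its summits lay 71 to 114 bp upstream of *Aatf* (ENSMUSG00000018697.7, start at chr11:84327024, minus strand), which encodes a cofactor of transcription and ribosome synthesis found in most cells. The *Aatf* site had 84 fragments and percentile 83.7 in Pax6-OFF, 78 fragments and percentile 70.8 in Pax6-HIGH, and 41 fragments and percentile 12.3 in Pax6-ON cells. Apart from it, *Lhx1* kept a pair of upstream peaks in Pax6-HIGH cells. The peak at chr11:84347965-84348360, 9344 bp upstream, had 61 fragments and percentile 57.9, and the peak at chr11:84343348-84344022, 4661 bp upstream, had 34 fragments and percentile 14.1. Without the *Aatf* site, *Lhx1* had no peak in Pax6-ON or Pax6-OFF cells.

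*Emx2* encodes a homeodomain factor of the ureteric bud epithelium, also known from the developing forebrain. Its gene (ENSMUSG00000043969.3, chr19:59533180-59539847, plus strand) had a pair of start-site sites in Pax6-ON and Pax6-OFF cells and none in Pax6-HIGH cells. The nearest Pax6-HIGH peak was 112352 bp from the gene body. The upstream site had its summit at the same base in both lines, 144 bp before the start. In Pax6-OFF cells this peak, chr19:59532538-59533472, had 68 fragments, a fold enrichment of 3.37 and percentile 72.8 (54.2 to 84.7). In Pax6-ON cells, at chr19:59532658-59533157, it had 46 fragments, a fold enrichment of 3.10 and percentile 22.2 (1.22 to 51.2).

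These ranges did not overlap. By fold enrichment the gap closed, to percentile 34.9 in Pax6-OFF and 27.2 in Pax6-ON cells. The background beside it was 19.5 fragments in Pax6-OFF and 14.2 in Pax6-ON cells. The part of the background in the higher pileup rank was not tested. This site also holds the start of *Emx2os*, a long noncoding RNA on the opposite strand, 89 bp from the summit, and ATAC-seq cannot assign it to either gene.

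The other *Emx2* site lay over coding sequence beside an internal start, with summits 5 bp apart in both lines. It had 49 fragments and percentile 48.3 in Pax6-OFF, at chr19:59533741-59534376, and 38 fragments and percentile 7.16 in Pax6-ON cells, at chr19:59533785-59534047.

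*Gata3* encodes a zinc-finger factor of the nephric duct and collecting duct, and also of T cells. Its gene (ENSMUSG00000015619.9, chr2:9778705-9811661, minus strand) was the only one of the 8 with a start-site peak in all 3 lines. In Pax6-HIGH cells the peak at chr2:9800256-9801498 had 169 fragments, a fold enrichment of 5.86 and percentile 94.5 (91.8 to 96.4). In Pax6-ON cells, at chr2:9800989-9801456, it had 81 fragments, a fold enrichment of 5.40 and percentile 72.3 (55.3 to 83.7). In Pax6-OFF cells, at chr2:9801185-9801495, it had 56 fragments, a fold enrichment of 3.44 and percentile 59.3 (34.3 to 76.5). The Pax6-HIGH range lay above both others, which overlapped each other.

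The summits of *Gata3* shared a base in Pax6-ON and Pax6-OFF cells, and the Pax6-HIGH summit was 49 bp away. They lay 1138 and 1089 bp upstream of the internal start at chr2:9800227, in an intron of the longer transcripts. The 5′ end of those transcripts, 10345 bp upstream of the Pax6-HIGH summit, had no peak in any line. The site counted as a start-site peak because its edge reached into the 1 kb around that start. With the summit itself required inside that distance, *Gata3* was lost in Pax6-HIGH and Pax6-ON cells, and with only the outermost 5′ end of the gene it was lost in all 3 lines. Within 500 bp of a start it was lost in Pax6-ON cells alone. A weak peak of Pax6-OFF cells, chr2:9800225-9800421, lay on the start, with 34 fragments and percentile 13.6.

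*Hnf4a* encodes a nuclear receptor that drives maturation of the proximal tubule and is also used in liver, gut and pancreas. Its window (ENSMUSG00000017950.9, chr2:163332544-163398646, plus strand) had no peak in any line, although its body of 66.1 kb is longer than 83.4% of genes. The nearest peaks beyond the window were 24738 bp (Pax6-HIGH), 33995 bp (Pax6-ON) and 29325 bp (Pax6-OFF) from the gene body. The HNF4 motif was found in none of the 22 peaks. It is rare everywhere, with a match in 0.352% (Pax6-HIGH), 0.290% (Pax6-ON) and 0.159% (Pax6-OFF) of all peaks.

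**Figure D2:**
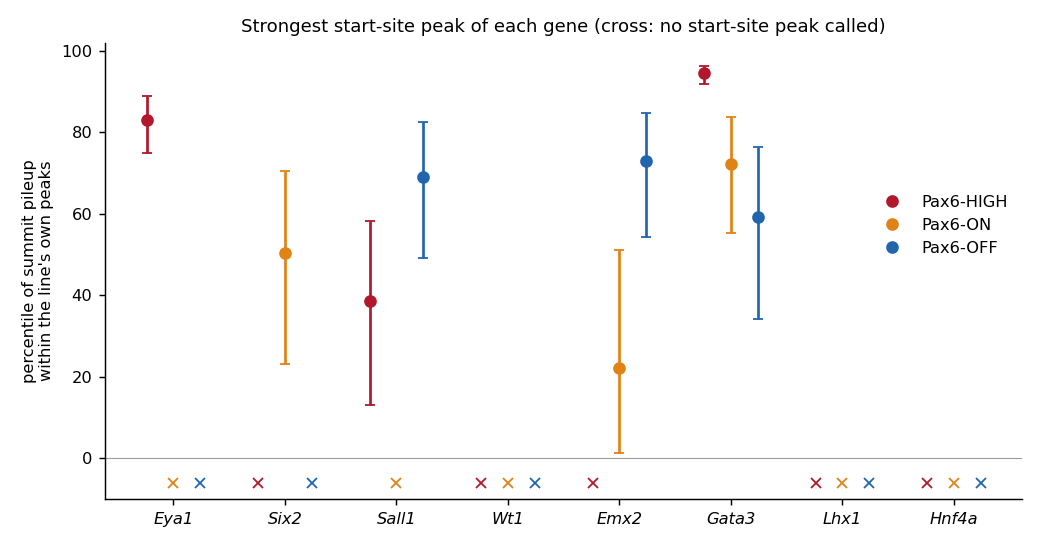
Percentile of the strongest start-site peak of each gene by pileup (y axis, percent of the line's own peaks) in the 3 cell lines. Bars are 95% Poisson intervals of the pileup, and crosses under the axis mark lines with no start-site peak. The *Gata3* peak of Pax6-HIGH cells stands highest, at 94.5, and *Emx2* stands at 72.8 in Pax6-OFF against 22.2 in Pax6-ON cells.

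Most of the genes have CpG-rich starts. Over 500 bases on either side of the most CpG-rich start of each gene, the ratio of CpG observed to CpG expected from base composition was 0.941 at *Six2*, 0.901 at *Emx2*, 0.863 at *Wt1*, 0.856 at *Lhx1*, 0.776 at *Eya1*, 0.638 at *Gata3*, 0.635 at *Sall1* and 0.306 at *Hnf4a*. The median of all protein-coding genes was 0.602. Genes with a start-site peak had medians of 0.777 (Pax6-HIGH), 0.788 (Pax6-ON) and 0.797 (Pax6-OFF), and genes without had 0.294, 0.474 and 0.355. CpG content and start-site peaks thus went together over the genome.

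Among the 8 genes they did not line up so closely. Of the 7204 genes with a ratio of at least 0.75, 81.7% (Pax6-HIGH), 39.4% (Pax6-ON) and 69.6% (Pax6-OFF) had a start-site peak. *Six2*, *Emx2*, *Wt1*, *Lhx1* and *Eya1* are such genes, and of these 5, only *Eya1* had a start-site peak in Pax6-HIGH cells, only *Emx2* in Pax6-OFF cells, and *Six2* and *Emx2* in Pax6-ON cells. *Wt1* and *Lhx1* had none despite ratios above those of *Gata3* and *Sall1*. *Hnf4a* was the only one of the 8 below the genome median. This is a description of 5 genes chosen by function, with no test.

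**Figure D3:**
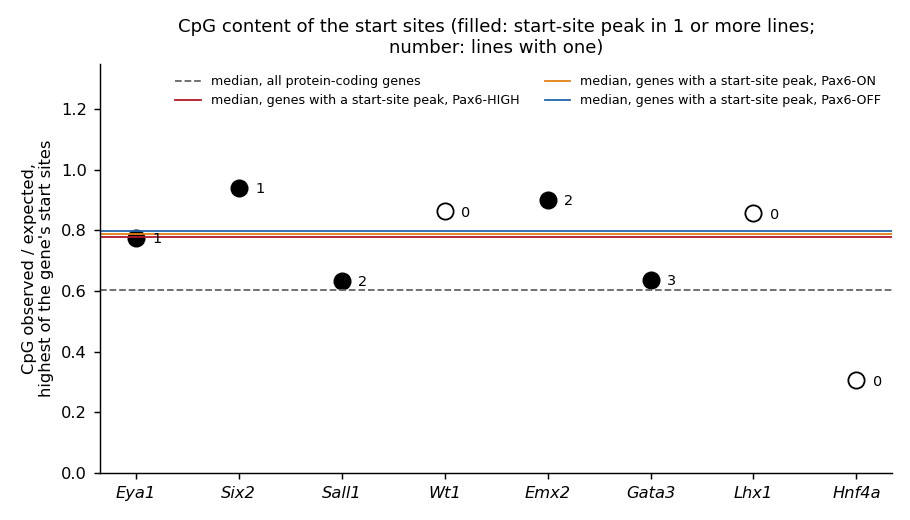
Ratio of observed to expected CpG (y axis, no unit) at the most CpG-rich start of each gene, filled where 1 or more lines had a start-site peak, with the number of such lines beside each point. Lines give the median of all protein-coding genes, 0.602, and of genes with a start-site peak in each cell line, 0.777 to 0.797. *Wt1* (0.863) and *Lhx1* (0.856) lie above all of these medians without a start-site peak, and *Hnf4a* (0.306) lies below.

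Motifs were counted in 300 bases around the summit of each peak. Of the 12 start-site peaks of the 8 genes, 11 held a GC box, all but that of *Eya1*, as did 71.2% (Pax6-HIGH), 75.8% (Pax6-ON) and 77.4% (Pax6-OFF) of start-site peaks over the genome. The NF-Y motif was found in 9 of the 12. It missed the Pax6-HIGH and Pax6-OFF peaks of *Sall1* and the weak Pax6-OFF peak of *Gata3*. The NF-Y motif of 5 letters is common by its length, being found in 38.1%, 43.7% and 38.9% of start-site peaks. Peaks of 1 site in different lines share most of their bases, so the 12 peaks are not 12 separate sequences.

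The AP-1 motif was found in 3 start-site peaks, all at the *Gata3* site that the lines share, where it reads TGAGTCA in the printed strand. AP-1 matches are otherwise uncommon in start-site peaks, at 4.57% (Pax6-HIGH), 5.79% (Pax6-ON) and 4.47% (Pax6-OFF). They are more frequent in peaks away from starts, at 16.6%, 46.4% and 25.8%. The AP-1 match in the printed *Eya1* start stretch lay beyond the 300 bases around its summit and was not counted.

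The 10 other peaks held the AP-1 motif once, in the *Eya1* peak 5460 bp inside the gene, and the GATA motif once, in the *Lhx1* peak 9344 bp upstream. The CTCF motif was found once in all 22 peaks, in the smaller Pax6-OFF peak of *Sall1*, as against 13.5% (Pax6-HIGH), 12.4% (Pax6-ON) and 14.1% (Pax6-OFF) of all peaks. GATA was found in 1 start-site peak, that of *Six2*. Over the genome it was found in 3.35% (Pax6-HIGH), 3.09% (Pax6-ON) and 2.72% (Pax6-OFF) of start-site peaks. In peaks away from starts its shares were 15.5%, 12.2% and 9.18%. The strongest *Eya1* peak held none of the 6 motifs. A match is a run of letters and not a bound site.

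The 8 genes were set beside 64 other genes of kidney development in 4 lists. Nephron progenitor and early kidney genes (18) had a start-site peak at 6 (Pax6-HIGH), 0 (Pax6-ON) and 5 (Pax6-OFF). Genes of the stroma and of the ureteric bud or collecting duct (18) had 8, 3 and 6, podocyte genes (10) had 4, 2 and 2, and tubule transcription factors (18) had 9, 4 and 5. Over the 64 genes the shares were 42.2%, 14.1% and 26.6%, all below the background given above. The renal line thus showed no larger share of marked kidney genes than of protein-coding genes as a whole.

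**Figure D4:**
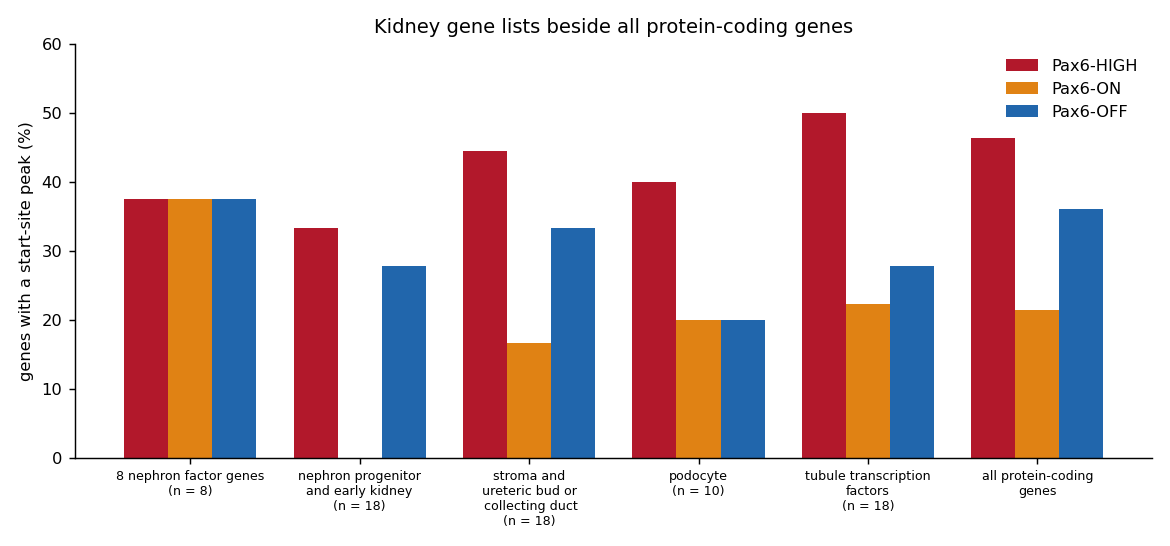
Share of genes with a start-site peak (y axis, percent) for the 8 genes, the 4 kidney lists with their number of genes, and all protein-coding genes, in the 3 cell lines (bars). No nephron progenitor gene of the list is marked in Pax6-ON cells, and in Pax6-OFF cells the 4 lists lie between 20% and 33.3%, under the background of 36.1%.

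Among the progenitor genes, *Six4*, a relative of *Six2*, had the same combination of lines as *Sall1*. *Six4* had 64 fragments and percentile 69.1 in Pax6-OFF against 38 fragments and percentile 23.2 in Pax6-HIGH cells. Thus *Six4* and *Sall1* both ranked higher within the renal line than within the insulinoma line. *Bmp7*, a growth factor that sustains progenitors, *Pax2*, a paired-domain factor of the whole early kidney, and *Hoxa11*, a homeobox gene of the metanephros, were marked in Pax6-OFF cells alone, at percentiles 63.4, 37.8 and 9.06.

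In the duct and stroma list, *Sox9*, a factor of the ureteric bud tips, shared the combination of *Emx2*. It had 83 fragments and percentile 73.8 in Pax6-ON but 28 fragments and percentile 2.01 in Pax6-OFF cells, the reverse order to *Emx2*. *Etv5*, a factor of the ureteric bud tips, was marked in all lines, as was *Gata3*, and stood at percentiles 98.7 (Pax6-HIGH), 40.2 (Pax6-ON) and 94.0 (Pax6-OFF). *Nr2f2*, *Tfcp2l1* and *Etv4* were the other genes marked in Pax6-OFF but not in all lines, at percentiles 64.6, 57.9 and 23.3 in Pax6-OFF cells. Of these, *Nr2f2* and *Tfcp2l1* had the combination of *Sall1*.

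In the podocyte list, *Nphs1*, which encodes the slit diaphragm protein nephrin, had no start-site peak in any line, as was the case for *Wt1*. Of the tubule factors, *Tfap2a*, *Sim1* and *Nr1h4* had the combination of *Sall1*, at percentiles 74.6, 59.3 and 48.3 in Pax6-OFF cells. *Mecom* and *Cux1* were marked in Pax6-OFF cells alone, at 46.4 and 25.8. *Irx5* was the only one of the 64 marked in Pax6-ON cells alone, as *Six2* was, with 79 fragments and percentile 70.8. *Hnf4g*, a close relative of *Hnf4a*, had no start-site peak in any line.

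A combination of Pax6-HIGH cells alone, as at *Eya1*, was found at 12 of the 64 genes (18.8%), against 11.1% of all protein-coding genes. Among the 12 were the progenitor genes *Cited1*, *Dach1*, *Mycn* and *Wnt4*. The percentiles of these progenitor genes were 63.0, 74.2, 62.1 and 54.7, below the 83.0 of *Eya1*. Of the 12 genes, *Gata2* of the duct and stroma list and the tubule factor *Esrrg* stood above *Eya1*, at 93.1 and 90.5, and the rest stood below it. *Cited1* marks the least differentiated progenitors, and *Dach1* encodes a partner of Eya1 and its relatives.

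The labels of the lines were set against defining markers, by start-site peaks only. Pax6-OFF cells had a start-site peak at 2 of 12 renal tubule markers, *Pax2* and *Cdh16*, with 44 and 43 fragments and percentiles 37.8 and 35.4. Tubule markers such as *Pax8*, *Lrp2*, *Cubn*, *Umod* and *Epcam* had none in any line. Pax6-HIGH cells had a start-site peak at 6 of 10 beta-cell markers, against 3 (Pax6-ON) and 1 (Pax6-OFF) in the other lines, but at none of *Ins1*, *Ins2*, *Iapp* and *Pdx1*. Pax6-ON cells had 3 of 10 lens markers, against 4 (Pax6-HIGH) and 3 (Pax6-OFF) in the other lines. *Pax6* itself was marked in Pax6-HIGH and Pax6-ON but not Pax6-OFF cells.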

How the data were processed

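ATAC-seq reads of 3 cell lines were, per the labels and the methods, trimmed with Trim Galore 0.4.1, aligned to mm9 with Bowtie2 2.2.6 and passed to MACS2 2.1.1 without a control library, at a q-value cut of 0.05. The authors pooled 2 replicates per line. The deposited pileup is a signal, the unscaled number of fragments at a summit. Fold enrichment, as deposited, is a ratio of pileup over local background, each plus 1, and the authors' q-values are deposited as −log10 values. MACS2 took whole fragments with no shift for Tn5 and kept all duplicates in its input. Both can widen peaks or raise pileups, and whether duplicates had been removed before is not given in the sources used here.

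Peaks were joined to the GENCODE M1 annotation of NCBIM37 (the assembly of mm9) by an overlap of at least 1 bp, with pandas 2.3.3 and pysam 0.24.0 in Python 3.11.15. Poisson intervals used SciPy 1.17.1. Motifs and CpG were read from the genome. Overlaps were tested on simulated peaks. The 3 genes *Tfcp2l1*, *Tfap2a* and *Tfap2b* were found under older symbols. No replicate spread exists, so no test was run. The 8 genes, the gene lists and the markers were chosen with earlier results of these data known. All 8 genes were named with every peak. Of the kidney lists, genes with a start-site peak in Pax6-OFF but not all lines (at most 6 per list) were named, as were genes with the same combination of lines as 1 of the 8. Some genes that this rule names are not reported here. The marker genes, *Nphs1*, *Hnf4g* and the *Etv5* values were described with their values in view. Alternatives were stricter q-values, an equal number of peaks per line, other windows, overlaps and rankings.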

Additional observations from a re-analysis of the deposited data

How the results depend on the processing

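No paired analysis was possible because the replicates of each line were pooled in 1 peak call and no result comes from a test. For the same reason no replicate could be left out. Of 186 values recomputed under the alternatives, 166 stayed within their counting interval or within 1.5 times the count given, among them all 50 under q-value cuts of 0.01 and 0.001. With each line held to its 9821 peaks of smallest q-value, the nephron progenitor list had start-site peaks at 2 (Pax6-HIGH) and 3 (Pax6-OFF) genes, the stroma and duct list at 3 (Pax6-HIGH), and the podocyte list at 1 (Pax6-HIGH) and 0 (Pax6-OFF). The windows of the 8 genes then held 5 (Pax6-HIGH) and 4 (Pax6-OFF) peaks, and 1 site was found in 2 lines. A start window of 500 bp left 3 tubule factors in Pax6-OFF cells. One of 2 kb gave 1 progenitor gene and 5 stroma and duct genes in Pax6-ON cells, and the outermost 5′ end alone left 1 podocyte gene there. Requiring an overlap of 50% of both peaks gave 16 sites in 1 line and 0 in 3 lines. Ranked by fold enrichment, the percentile was 34.9 for *Emx2* in Pax6-OFF, 68.9 for *Eya1* in Pax6-HIGH and 83.3 for *Gata3* in Pax6-HIGH cells. Ranked among start-site peaks, it was 69.6 for *Eya1* and 89.2 for *Gata3* in Pax6-HIGH cells, and on its own chromosome *Gata3* stood at 96.8 there. Apart from the shifts that follow from ranking within fewer peaks or other windows, the cause was not tested. The weaker peaks stood closest to the lowest called pileup, which was 25 (Pax6-HIGH), 30 (Pax6-ON) and 25 (Pax6-OFF) fragments. The part of depth in which peaks were called was not tested.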
